A study of Mus musculus with 6 samples.

Results

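The genes described here are Toll-like receptors, their adaptors and kinases, NOD-like receptors and other inflammasome sensors, inflammasome adaptor and caspase genes, and gasdermins. They were taken by gene symbol (Tlr, Nlrp, Naip and Gsdm genes followed by their letter or number, Nlrc3, Nlrc4, Nlrx1, Nod1, Nod2, Aim2, Pycard, Casp1, Casp4, Myd88, Irak1 to Irak4, Ticam1, Ticam2 and Ripk1 to Ripk3), which gave 53 of the 18180 genes in the count table. The series compares 2 groups of 3 RNA-seq libraries of mouse tail skin. The libraries labelled cKO came from Mettl3fl/fl;K14creERT2+/- mice, whose keratin 14 promoter drives a tamoxifen-inducible Cre recombinase in basal keratinocytes, and were taken from spontaneously inflamed tail areas. The control libraries came from Mettl3fl/fl;K14creERT2-/- mice, which carry the floxed alleles without Cre, and were taken from normal tails. Tamoxifen was given on 5 consecutive days and tissue was collected 4 weeks later; neither the age nor the sex of the mice is in the labels. Genotype and inflamed tissue went together, so a difference between the groups cannot be assigned to either, and no label ties a library to an animal, so the p-values cover the variation among these 6 libraries, part or all of which may be technical.

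Total counts per library were 35855880 to 36113956 in the libraries labelled cKO and 36115822 to 37043849 in control libraries, and 3 counts in a library correspond to 0.0810 to 0.0837 CPM, the count scaled to the library total. The targeted gene Mettl3, the catalytic subunit of the RNA N6-methyladenosine writer, had 569, 512 and 540 counts in the libraries labelled cKO, against 440, 389 and 337 counts in control libraries (log2 fold change 0.48, SE 0.11, adjusted p = 0.000102). It was higher where the label says it was deleted, so every direction below is given for the libraries as labelled. These are counts over the whole gene, and the floxed part was not analysed separately here. The skin keratinocyte markers Krt5, Krt14, Krt1, Krt10 and Krt2 were abundant in every library. Of 10 keratinocyte markers 7 rose and 2 fell, beside 30.8% and 30.6% of all genes tested. Krt1 was 9.44-fold higher and Krt2 2.66-fold lower. The summed level of the 10 markers was 72544 to 73365 CPM in the libraries labelled cKO and 52978 to 53197 CPM in control libraries.

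Toll-like receptors sense microbial lipids, proteins and nucleic acids at the cell surface or in endosomes and signal through the adaptors MyD88 and TRIF (the product of Ticam1) to IRAK kinases, NF-kappa B and interferon regulatory factors. Inflammasomes are cytosolic complexes in which a sensor such as NLRP3, NLRC4 with a NAIP, NLRP1 or AIM2 recruits the adaptor ASC (the product of Pycard) and caspase-1, which matures IL-1 beta and IL-18. Gasdermins are pore-forming proteins released by proteolytic cleavage; gasdermin D is cut by caspase-1 and mouse caspase-11 (the product of Casp4), while gasdermin A is expressed mainly in epithelia, including the epidermis.

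More of these genes rose than fell in the libraries labelled cKO, among them 8 of 10 tested Toll-like receptors, 4 of 10 tested sensors, all 3 genes of the inflammasome adaptor and caspases and 3 of 7 tested gasdermins. The sensor and gasdermin counts lie near the 30.8% of all genes tested that were called higher, so no rise of either class is read from them. Gsdmc rose 4.26-fold, Tlr1 5.1-fold, Nlrp3 3.65-fold and Nod2 2.84-fold, while Nlrp10 and Irak1 fell 1.6-fold and 1.34-fold and Gsdma, the gasdermin with the highest level in both groups, did not pass the test. Of the 53 members 44 passed the filter on low counts and were tested, 41 of them with enough counts in all 6 libraries. Gsdmc2 and Nlrc4 passed only through the libraries labelled cKO and Naip1 only through control libraries, so these 3 had to differ to be tested. By edgeR's quasi-likelihood test at an adjusted p under 0.05, 25 members rose and 6 fell in the libraries labelled cKO, beside 30.8% and 30.6% of the 15061 genes tested in the whole table (61.4% in either direction). A change of at least 2-fold was called for 13 members upward and 1 downward, where the whole table had 5.98% upward and 4.79% downward. Both upward counts include Gsdmc2 and Nlrc4, and the 1 member downward by at least 2-fold is Naip1. The median log2 fold change was 0.58 over the tested members and 0.0021 over all genes tested. Libraries of the 2 groups did not overlap in 25 members with higher values in the libraries labelled cKO and in 5 with lower values, beside 32.6% and 32.3% of all genes tested. The spread between libraries was small: when the biological coefficient of variation (BCV) was set to 20%, 20 members were called higher and 3 lower, and with 40% these counts were 8 and 1. The members whose calls were lost at 20% were Tlr3, Irak1, Irak2, Irak4, Myd88, Ticam1, Ripk1, Nlrx1 and Nod1, and Naip6 gained one; the call of Mettl3 was lost as well.

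**Figure D1:**
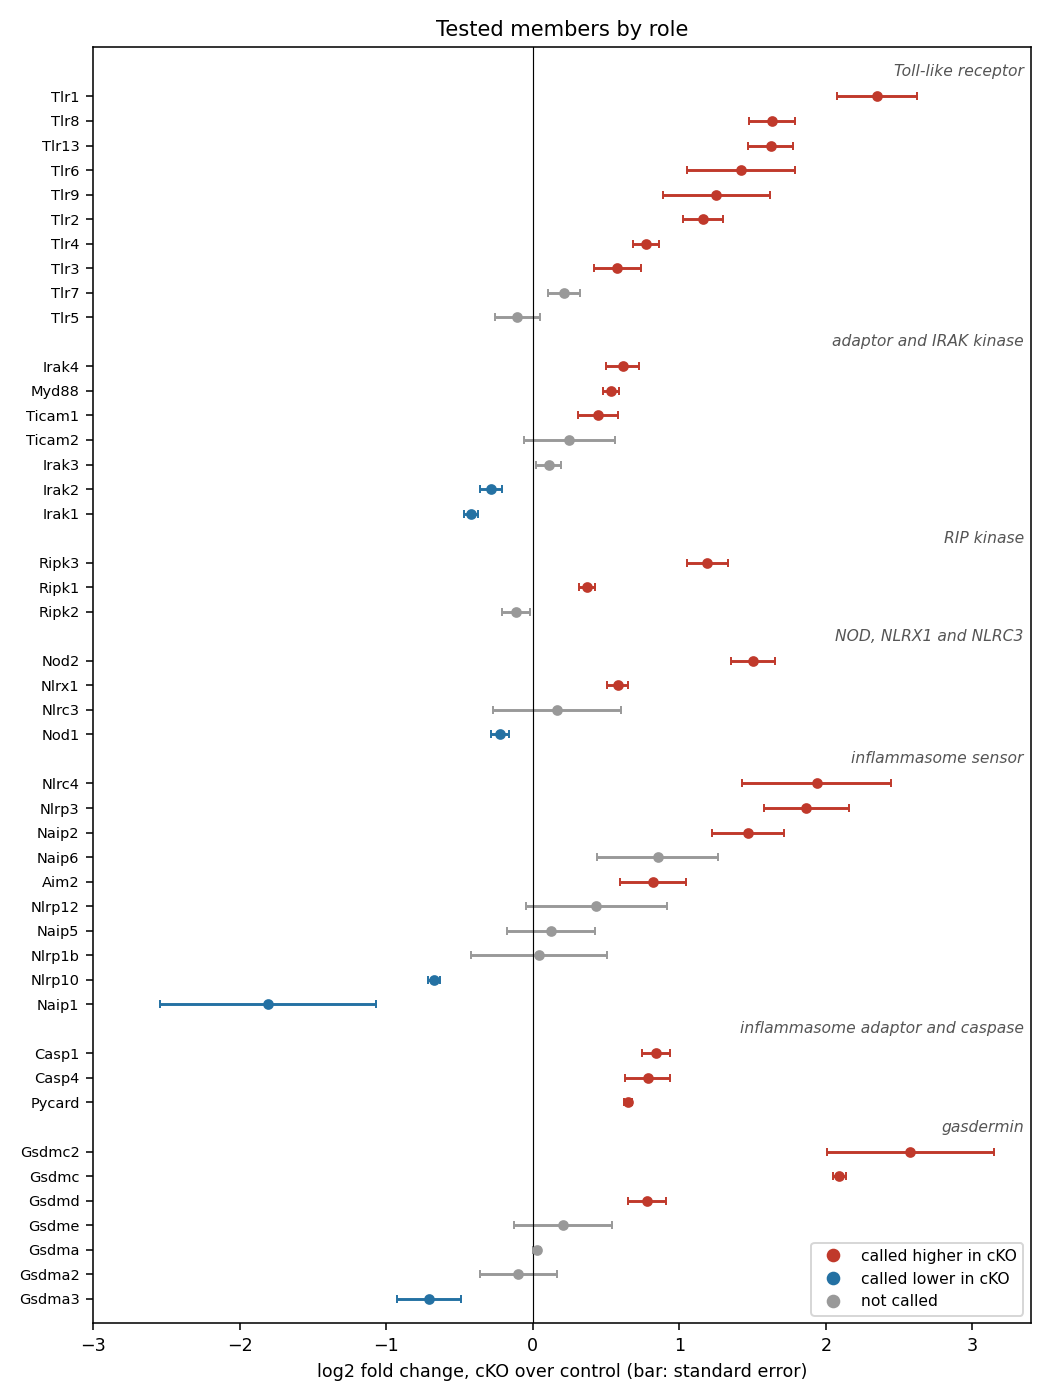
Log2 fold change of the libraries labelled cKO over control libraries for the 44 tested members, grouped by role, with the standard error of the fit as bars (n = 3 libraries per group). The 25 genes called higher lie right of 0, with Gsdmc2 at 2.58 and Tlr1 at 2.35 farthest, and the 6 called lower lie left, with Nlrp10 at -0.68 and Naip1 at -1.81.

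Markers of several cell types moved with these genes. The counts of markers called stand beside 30.8% of all genes tested called higher and 30.6% called lower. All 8 tested neutrophil markers of 15 listed rose, and their summed level over the whole list was 52.7 to 55.2 CPM in the libraries labelled cKO and 9.37 to 12.9 CPM in control libraries. Of these, Trem1, Mmp8, Retnlg, Fpr1 and Fpr2 passed the filter only through the libraries labelled cKO, so they had to differ to be tested. Csf3r, Cxcr2 and Mmp9 had enough counts in every library of both groups. The granule genes Mpo and Elane, which define early neutrophil stages, had at most 4 counts in any library. Of 14 tested monocyte and macrophage markers 13 rose, with summed levels of 1610 to 1649 CPM and 1147 to 1168 CPM in the same order of groups. T cell markers rose in 9 of 10, at 20.7 to 21.9 CPM in the libraries labelled cKO and 6.02 to 7.41 CPM in control libraries. The other untested neutrophil markers were scarce too: Cxcr1 had 1, 1 and 7 counts in the libraries labelled cKO and none in control libraries. Ltf had 6, 4 and 8 counts in the libraries labelled cKO and 0, 1 and 1 counts in control libraries, and Ly6g, Camp and Ngp overlapped between groups. Of dendritic and Langerhans cell markers 6 of 10 rose, of mast cell markers 5 of 8, and of the tested B cell markers 0 of 2. The T cell marker Cd8a and the dendritic cell marker Ccr7 had at most 7 counts in any control library. Both passed the filter only through the libraries labelled cKO. Among other cell types, 5 of 5 melanocyte, 5 of 6 fibroblast, 5 of 6 endothelial and 1 of 5 tested skeletal muscle markers rose, while 1 fibroblast marker and 6 of 8 sebaceous gland markers fell. The part of these cells in the gene differences was not tested, and in bulk skin the number of cells of a type and the RNA per cell cannot be told apart.

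Of 12 Toll-like receptor genes 10 were tested. Of these 8 rose and none fell, beside 30.8% and 30.6% of all genes tested. The lipopeptide receptor genes were among them. Tlr2, whose protein pairs with TLR1 or TLR6 to sense bacterial lipopeptides, had 421, 407 and 424 counts in the libraries labelled cKO, against 207, 197 and 157 counts in control libraries. All libraries labelled cKO lay above all control libraries, with levels of 3.66 ± 0.0796 and 1.61 ± 0.234 FPKM (counts scaled to gene length and library total, SD, n = 3 each) and a 2.24-fold rise (SE 0.14 on the log2 scale, adjusted p = 1.4e-11). Its partner gene Tlr1 had 137, 162 and 179 counts in the libraries labelled cKO and 34, 18 and 42 counts in control libraries (log2 fold change 2.35, SE 0.27, adjusted p = 6.84e-12). The other partner gene Tlr6, which adjoins Tlr1 in the RefSeq gene order of assembly GRCm38.p6, had 83, 60 and 76 counts in the libraries labelled cKO and 18, 22 and 42 counts in control libraries (log2 fold change 1.42, SE 0.37, adjusted p = 0.000588). The groups did not overlap in either gene.

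Tlr4, the receptor for bacterial lipopolysaccharide, rose by less. It had 912, 873 and 849 counts in the libraries labelled cKO, against 504, 460 and 583 counts in control libraries (1.71-fold, log2 fold change 0.77, SE 0.089, adjusted p = 6.41e-12). Tlr5, the flagellin receptor, overlapped between the groups, with 217, 270 and 218 counts in the libraries labelled cKO and 294, 209 and 259 counts in control libraries (log2 fold change -0.11, SE 0.15, adjusted p = 0.564).

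Of the endosomal receptors of nucleic acids, Tlr3, Tlr8, Tlr9 and Tlr13 were called higher, while Tlr7 was not called. Tlr13, which in mice senses bacterial ribosomal RNA, had 395, 404 and 448 counts in the libraries labelled cKO, against 112, 178 and 115 counts in control libraries (3.08-fold, log2 fold change 1.62, SE 0.15, adjusted p = 2.83e-15). Tlr8, a receptor of RNA breakdown products, had 352, 410 and 352 counts in the libraries labelled cKO, against 144, 120 and 96 counts in control libraries (3.1-fold, log2 fold change 1.63, SE 0.16, adjusted p = 7.7e-15). Both genes were higher in every library labelled cKO than in any control library. Tlr7, the single-stranded RNA receptor gene next to Tlr8 in the same gene order and singled out here after its values were seen, had 519, 459 and 523 counts in the libraries labelled cKO and 474, 360 and 470 counts in control libraries. Its groups overlapped (log2 fold change 0.21, SE 0.11, adjusted p = 0.0902), but without cKO replicate 2 it passed the test (adjusted p = 0.0454). Tlr3, the double-stranded RNA receptor, had 252, 285 and 237 counts in the libraries labelled cKO, against 162, 156 and 203 counts in control libraries (1.49-fold, log2 fold change 0.58, SE 0.16, adjusted p = 0.00129). Tlr9, the receptor of unmethylated CpG DNA, rose 2.38-fold at a lower level, 0.553 ± 0.119 FPKM in the libraries labelled cKO and 0.228 ± 0.0514 FPKM in control libraries (SD, n = 3 each). Tlr11 and Tlr12, receptors of protozoan profilin, did not pass the filter, with 7 to 11 and 4 to 13 counts per library labelled cKO and 1 to 18 and 0 to 5 counts per control library. Tlr7, Tlr8, Tlr13 and Irak1 are X-linked genes, and the Y-linked genes Ddx3y, Kdm5d, Uty and Eif2s3y had at most 7 counts in any library.

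Summed over the 12 receptors, the level per length was 18.9 ± 0.125 FPKM in the libraries labelled cKO and 9.71 ± 0.421 FPKM in control libraries (SD, n = 3 each), and the make-up of that sum differed. Tlr7 had the largest share in control libraries and Tlr2 in the libraries labelled cKO. The share of Tlr7 was 13.3% ± 1.04 in the libraries labelled cKO and 22% ± 2.12 in control libraries, and that of Tlr5 was 5.45% ± 0.664 and 11.2% ± 1.29 in the same order. The share of Tlr13 was 15.2% ± 1.01 in the libraries labelled cKO and 9.55% ± 3.24 in control libraries, and that of Tlr8 was 10.1% ± 0.845 and 6.25% ± 1.2. Groups did not overlap in these 4 shares (two-sided exact permutation p = 0.1 for each, the smallest that 3 against 3 libraries can give). The share of Tlr4 was 15.4% ± 0.659 in the libraries labelled cKO and 17.2% ± 1.61 in control libraries, with overlapping values (exact permutation p = 0.2).

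**Figure D2:**
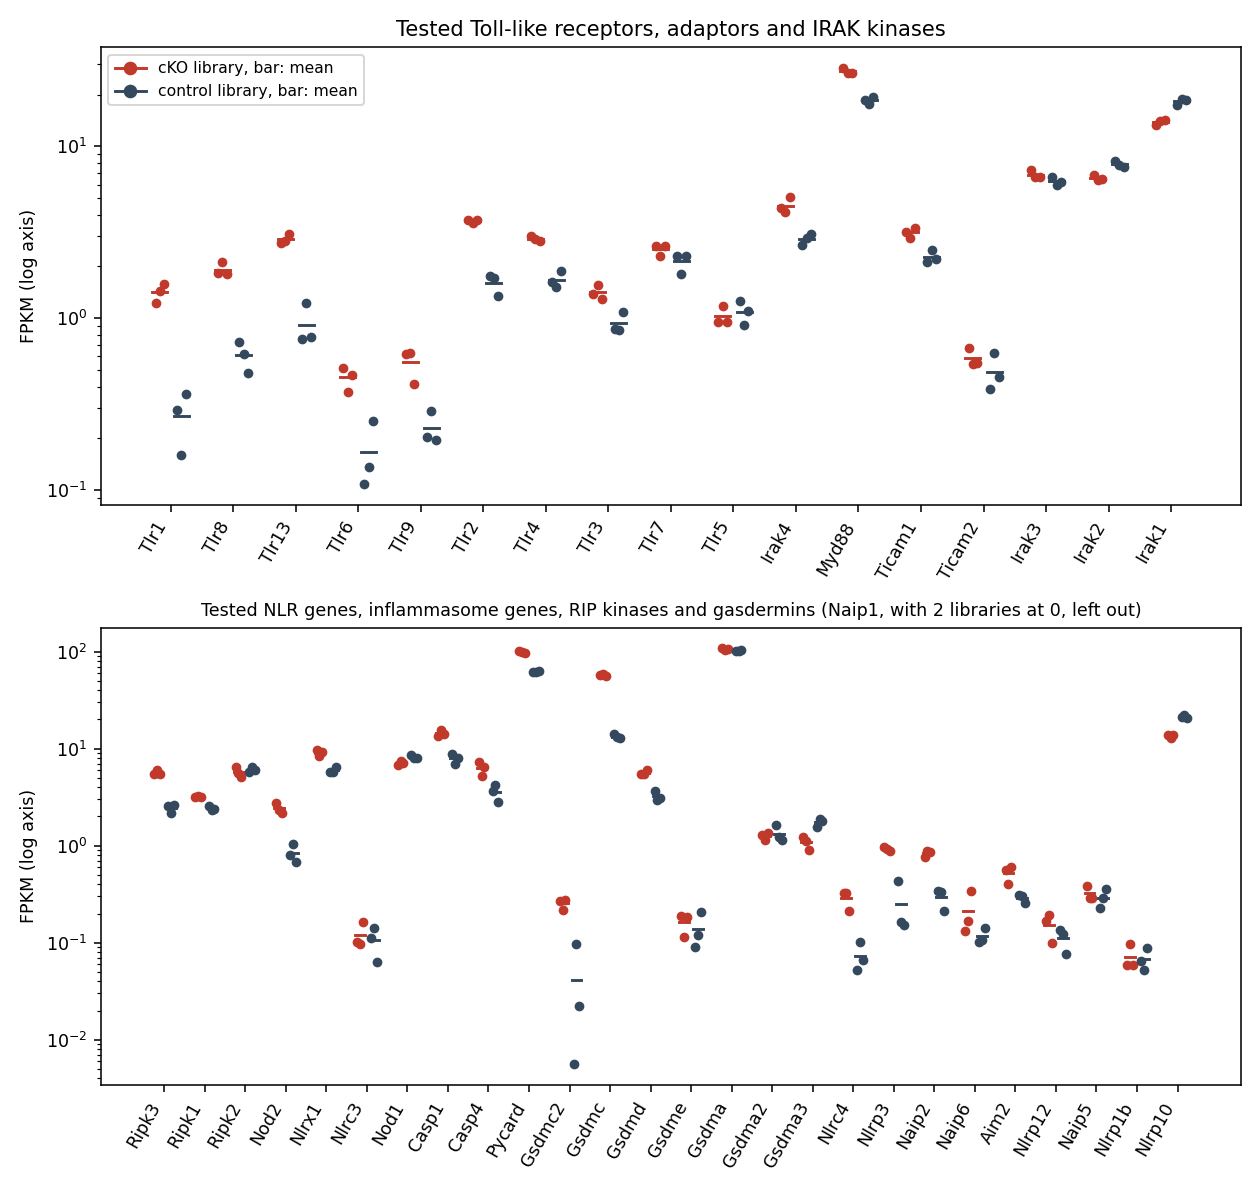
FPKM in each library (points, log axis) with the group mean (bar), libraries labelled cKO in red at the left of each gene and control libraries in dark blue at the right. The upper panel shows Toll-like receptors, adaptors and IRAK kinases, and the lower panel the other tested members except Naip1; Gsdmc, Nlrp3 and Tlr1 show wide gaps between groups, while Gsdma, Irak3, Ripk2 and Tlr5 overlap.

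Of the 7 genes for adaptors and IRAK kinases next to the receptors 3 rose and 2 fell, counts near what the whole-table shares of 30.8% and 30.6% give, with a median log2 fold change of 0.25. Myd88, the adaptor shared by most Toll-like receptors and the IL-1 receptor family, had 1982, 1859 and 1868 counts in the libraries labelled cKO, against 1328, 1241 and 1396 counts in control libraries (1.45-fold, log2 fold change 0.53, SE 0.057, adjusted p = 3.23e-13). Irak4, the kinase that MyD88 recruits first, had 504, 480 and 589 counts in the libraries labelled cKO and 319, 342 and 370 counts in control libraries (log2 fold change 0.61, SE 0.11, adjusted p = 2.24e-06). Irak1, a kinase that IRAK4 activates, went the other way, with 1897, 1987 and 2029 counts in the libraries labelled cKO, against 2547, 2705 and 2714 counts in control libraries (log2 fold change -0.42, SE 0.048, adjusted p = 2.25e-12). None of these 3 genes overlapped between groups. Irak2, another kinase of the same complex, had 831, 773 and 795 counts in the libraries labelled cKO and 1036, 955 and 949 counts in control libraries (log2 fold change -0.29, SE 0.076, adjusted p = 0.000788). Ticam1, which encodes the adaptor of TLR3 and endosomal TLR4, had 324, 297 and 344 counts in the libraries labelled cKO and 224, 256 and 232 counts in control libraries (1.36-fold, adjusted p = 0.00423). Irak3, which encodes the inhibitory family member IRAK-M, and Ticam2 overlapped between groups, with log2 fold changes of 0.11 (SE 0.084) and 0.25 (SE 0.31).

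RIP kinases link these receptors and the TNF receptor to NF-kappa B, apoptosis and necroptosis. Ripk3, the kinase that activates the necroptosis pore protein MLKL, had 388, 422 and 393 counts in the libraries labelled cKO, against 185, 154 and 190 counts in control libraries (2.28-fold, log2 fold change 1.19, SE 0.14, adjusted p = 9.65e-12). Ripk1, its upstream partner, had 1885, 1929 and 1877 counts in the libraries labelled cKO and 1561, 1389 and 1466 counts in control libraries (1.29-fold, adjusted p = 1.33e-08). Both were higher in every library labelled cKO. Ripk2, the kinase that NOD1 and NOD2 use, overlapped, with 637, 551 and 505 counts in the libraries labelled cKO and 591, 639 and 613 counts in control libraries (adjusted p = 0.301).

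Nod1 and Nod2, cytosolic sensors of bacterial peptidoglycan fragments, moved in opposite directions. Nod2 had 463, 391 and 368 counts in the libraries labelled cKO, against 140, 175 and 117 counts in control libraries (2.84-fold, SE 0.15 on the log2 scale, adjusted p = 3.14e-14). Nod1 had 1099, 1206 and 1135 counts in the libraries labelled cKO, against 1415, 1297 and 1322 counts in control libraries (log2 fold change -0.22, SE 0.064, adjusted p = 0.0017). Per length Nod1 was the higher of the pair, at 7.12 ± 0.329 FPKM in the libraries labelled cKO and 8.19 ± 0.308 FPKM in control libraries, beside 2.42 ± 0.303 and 0.839 ± 0.182 FPKM for Nod2 (SD, n = 3 each). Nlrx1, a mitochondrial family member known to dampen antiviral signalling, had 1369, 1210 and 1330 counts in the libraries labelled cKO, against 852, 832 and 946 counts in control libraries (1.49-fold, adjusted p = 3.58e-11). Nlrc3, a negative regulator in T cells and myeloid cells, overlapped between groups at 30 to 50 counts per library labelled cKO and 20 to 44 counts per control library.

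Among inflammasome sensors the most abundant gene fell and several scarce ones rose. Nlrp10, an NLR protein without leucine-rich repeats that is expressed in epidermis, had 2219, 2093 and 2220 counts in the libraries labelled cKO, against 3475, 3576 and 3420 counts in control libraries (log2 fold change -0.68, SE 0.043, adjusted p = 2.32e-23). It held 79.5% ± 0.548 of the summed FPKM of 15 sensor genes in the libraries labelled cKO and 92.7% ± 0.665 in control libraries (SD, n = 3 each, two-sided exact permutation p = 0.1). Nlrp3, the sensor of ion fluxes and membrane damage, had 143, 137 and 131 counts in the libraries labelled cKO, against 66, 24 and 23 counts in control libraries (3.65-fold, log2 fold change 1.87, SE 0.29, adjusted p = 5.21e-08). Control replicate 1 stood above the other control libraries, and without it the Nlrp3 rise was 5.81-fold (adjusted p = 5.36e-11). Aim2, the sensor of cytosolic double-stranded DNA, had 156, 112 and 170 counts in the libraries labelled cKO and 89, 86 and 74 counts in control libraries (1.76-fold, log2 fold change 0.82, SE 0.22, adjusted p = 0.00104).

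Nlrc4 forms an inflammasome with NAIP proteins, which bind flagellin and bacterial secretion-system proteins. Nlrc4 had 48, 48 and 31 counts in the libraries labelled cKO and 8, 15 and 10 counts in control libraries (3.83-fold, log2 fold change 1.94, SE 0.51, adjusted p = 0.000716). Naip2 had 132, 153 and 151 counts in the libraries labelled cKO, against 62, 58 and 38 counts in control libraries (2.76-fold, log2 fold change 1.47, SE 0.25, adjusted p = 3.73e-07). In both genes the groups did not overlap, though Nlrc4 passed the filter only through the libraries labelled cKO. Naip1, the only member called at least 2-fold lower, had 0, 0 and 20 counts in the libraries labelled cKO and 25, 28 and 18 counts in control libraries, with overlapping groups (adjusted p = 0.0314). Its call was lost without cKO replicate 1 (adjusted p = 0.162), without cKO replicate 2 (0.147), without control replicate 1 (0.0735) and without control replicate 2 (0.0817), and by DESeq2 (0.479). Without cKO replicate 3 both remaining libraries of that label had no count. Naip6 had 32, 40 and 83 counts in the libraries labelled cKO and 25, 26 and 35 counts in control libraries (adjusted p = 0.0666), and passed the test without cKO replicate 1 (0.027) or without cKO replicate 2 (0.0471). Naip5 overlapped between groups (adjusted p = 0.743). Naip genes are neighbours of similar sequence, so the counting could have misplaced or lost some of their reads, which was not tested.

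The remaining sensors were scarce in this skin. Nlrp1b, a sensor of pathogen proteases, had 24, 39 and 24 counts in the libraries labelled cKO and 27, 21 and 37 counts in control libraries (log2 fold change 0.041, SE 0.47, adjusted p = 0.945), so a moderate difference was not detectable at this depth. Nlrp12 overlapped between groups at 16 to 39 counts per library. Nlrp1a, Nlrp4e, Nlrp4f, Nlrp5 and Nlrp6 did not pass the filter. Nlrp1a had 7, 8 and 18 counts in the libraries labelled cKO and 5, 6 and 11 counts in control libraries. The other 4 had 8 counts or fewer in every library.

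All 3 genes of the common inflammasome machinery rose, beside 30.8% of all genes tested. None of the 3 rose by 2-fold or more, and all 3 calls were lost with an assumed BCV of 40%. Pycard, the adaptor gene and the second most abundant member per length, had 7836, 7633 and 7404 counts in the libraries labelled cKO, against 4889, 4750 and 5014 counts in control libraries. Its level was 99.2 ± 3.17 FPKM in the libraries labelled cKO and 62.3 ± 1.02 FPKM in control libraries (SD, n = 3 each; 1.57-fold, log2 fold change 0.65, SE 0.029, adjusted p = 4.65e-32). Casp1, the protease gene, had 735, 852 and 767 counts in the libraries labelled cKO and 491, 383 and 447 counts in control libraries (1.79-fold, log2 fold change 0.84, SE 0.096, adjusted p = 5.46e-12). Casp4, the gene of the lipopolysaccharide-binding caspase and the neighbour of Casp1, had 370, 269 and 330 counts in the libraries labelled cKO, against 195, 219 and 150 counts in control libraries (1.72-fold, log2 fold change 0.78, SE 0.15, adjusted p = 7.87e-06). No library of one group overlapped the other in any of the 3 genes, beside 32.6% of all genes tested that did so upward.

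Gasdermin transcripts were dominated by Gsdma in both groups, and the difference between groups lay mainly in Gsdmc. Gsdma had 10578, 10197 and 10567 counts in the libraries labelled cKO and 10356, 10049 and 10491 counts in control libraries. These values overlapped, at 105.9 ± 2.28 FPKM in the libraries labelled cKO and 102.3 ± 0.997 FPKM in control libraries (SD, n = 3 each), and the log2 fold change was 0.026 (SE 0.023, adjusted p = 0.318; 0.0298 with upper-quartile scaling, where it was 0.056). Gsdmc had 4942, 4999 and 4856 counts in the libraries labelled cKO, against 1234, 1131 and 1121 counts in control libraries, with all libraries labelled cKO far above the control libraries. Its level was 57.5 ± 0.963 FPKM in the libraries labelled cKO and 13.3 ± 0.645 FPKM in control libraries (4.26-fold, log2 fold change 2.09, SE 0.044, adjusted p = 5.09e-53), and it stayed called with an assumed BCV of 40%. As a share of the summed gasdermin FPKM, Gsdmc made up 33.5% ± 0.79 in the libraries labelled cKO and 10.9% ± 0.496 in control libraries, and Gsdma 61.6% ± 0.623 and 83.8% ± 0.755 in the same order (two-sided exact permutation p = 0.1 for each).

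**Figure D3:**
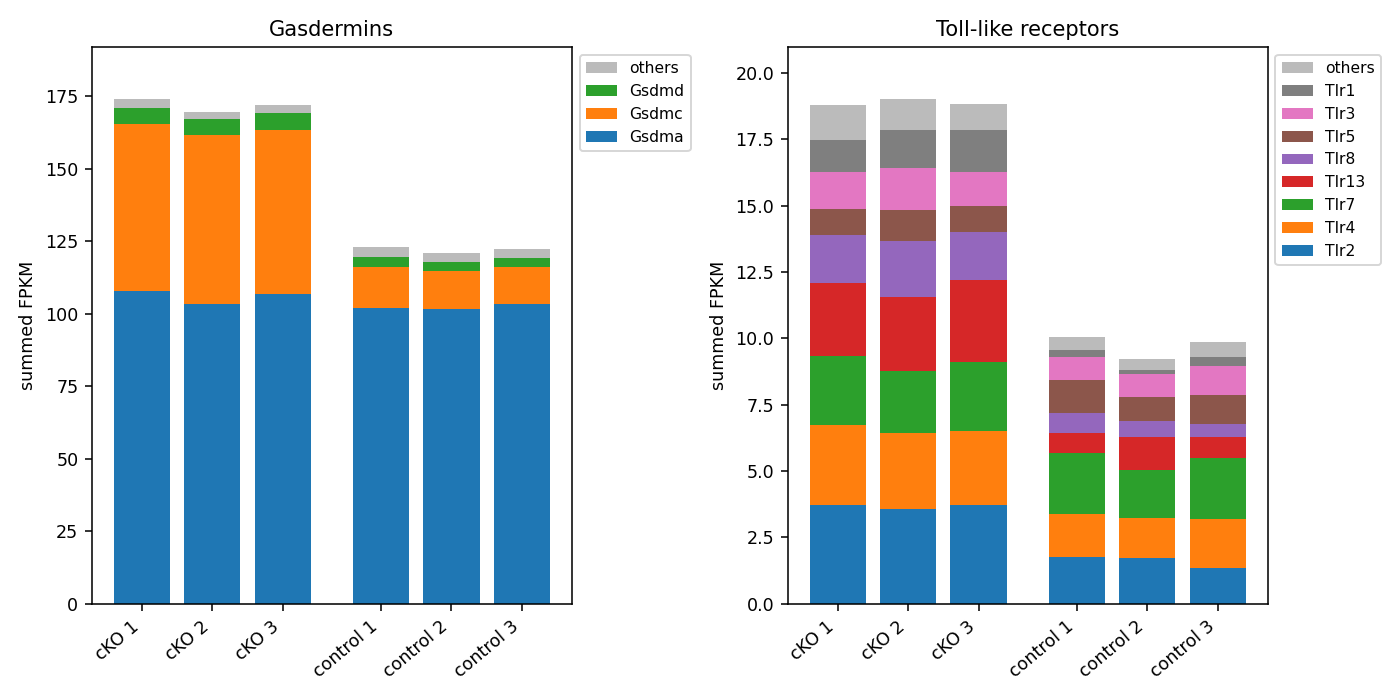
Summed FPKM of the gasdermin genes (left) and the Toll-like receptor genes (right) in each library, stacked by gene, with libraries labelled cKO at the left of each panel. The gasdermin bars reach 169.7 to 174 in the libraries labelled cKO and 121 to 122.9 in control libraries with a similar Gsdma layer; the receptor bars reach 18.8 to 19.0 and 9.24 to 10.1 in the same order.

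Gsdmd, the pore gene downstream of inflammatory caspases, was a minor gasdermin. It had 386, 383 and 423 counts in the libraries labelled cKO, against 264, 210 and 223 counts in control libraries (1.72-fold, log2 fold change 0.78, SE 0.13, adjusted p = 4e-07), and held 3.27% ± 0.173 of the gasdermin sum in the libraries labelled cKO and 2.64% ± 0.276 in control libraries. Gsdma3, in which dominant mutations are known to cause hair loss in mice, had 97, 88 and 72 counts in the libraries labelled cKO and 128, 149 and 145 counts in control libraries (log2 fold change -0.71, SE 0.22, adjusted p = 0.0041). Hair follicle markers moved with Gsdma3: 9 of 10 fell, beside 30.6% of all genes tested. Their summed level was 7949 to 8015 CPM in the libraries labelled cKO and 24636 to 24736 CPM in control libraries. Krt84, a hard keratin also found in tail scales, carried most of that sum's difference, at 2378 CPM on average in the libraries labelled cKO and 15426 CPM in control libraries (6.49-fold lower), and the other 8 that fell did so by 1.30-fold to 1.95-fold. The part of these cells in the Gsdma3 difference was not tested. Gsdma2 overlapped between groups, with 81, 72 and 86 counts in the libraries labelled cKO and 105, 78 and 74 counts in control libraries (adjusted p = 0.762). Gsdme, whose protein caspase-3 cleaves, overlapped too, with 72, 44 and 70 counts in the libraries labelled cKO and 35, 46 and 81 counts in control libraries (adjusted p = 0.609).

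Of the Gsdmc copies, Gsdmc2 had 47, 38 and 48 counts in the libraries labelled cKO and 1, 17 and 4 counts in control libraries (5.96-fold, log2 fold change 2.58, SE 0.57, adjusted p = 6.65e-05). Control replicate 2 decided its size, since the rise was 17.1-fold without that library. Gsdmc2 passed the filter only through the libraries labelled cKO, so it had to differ to be tested. Gsdmc3 had 1 count in all 6 libraries. Gsdmc4 had 0, 1 and 5 counts in the libraries labelled cKO and 1, 0 and 6 counts in control libraries, too few to test. Gsdma, Gsdma2 and Gsdma3 stand side by side in the RefSeq gene order, as do Gsdmc, Gsdmc2, Gsdmc3 and Gsdmc4. Reads of such similar copies could have been split or lost in the counting, so the single values of the scarce copies are uncertain.

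Promoter windows from 250 bases before to 50 bases after the annotated start were read from RefSeq (assembly GRCm38.p6) for 42 of the 53 members, in 53 windows, and searched for 4 motifs. The kappa B motif was searched as GGG, any 2 bases and TTTCC, the interferon-stimulated response element (ISRE) as TTTC, any 2 bases and TTTC, and the AP-1 motif as TGANTCA, each on both strands, and the TATA box as TATAAA on the gene's strand. Gsdmc, Gsdma, Gsdmd, Tlr4 and Nlrp10 were among the members without a window. Of 21 members called higher with a window, 2 held the kappa B letters (Casp4 and Tlr3), 3 the ISRE letters (Myd88, Ripk1 and Tlr6), 1 the AP-1 letters (Tlr9) and 2 the TATA letters (Myd88 and Tlr8). Among all 27025 genes with a window, 1.89% held the kappa B letters, 3.99% the ISRE letters, 8.97% the AP-1 letters and 9.77% the TATA letters. Of the 11 members called at least 2-fold higher with a window, 0 held the kappa B letters, 1 the ISRE letters (Tlr6), 1 the AP-1 letters (Tlr9) and 1 the TATA letters (Tlr8). Of the 5 members called lower with a window, Gsdma3 held the kappa B and the ISRE letters. No excess of any motif is read from these small counts. A match describes letters in a window and is no evidence of binding. The 4 windows below, chosen after the values were seen, show rising members of the receptor, adaptor and caspase classes that hold a kappa B match (Casp4, Tlr3) or an ISRE match (Myd88, Tlr6), with the matched bases in capitals; in Tlr6 a pair of matches overlaps.
Casp4 promoter, chr9:5308599-5308898, + strand: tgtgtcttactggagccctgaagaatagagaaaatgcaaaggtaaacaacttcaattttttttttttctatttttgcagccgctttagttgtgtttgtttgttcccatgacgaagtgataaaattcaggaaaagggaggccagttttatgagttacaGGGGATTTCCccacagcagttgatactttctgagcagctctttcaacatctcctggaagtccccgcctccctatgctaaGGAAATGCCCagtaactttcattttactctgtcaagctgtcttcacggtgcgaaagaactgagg
Tlr3 promoter, chr8:45410331-45410630, - strand: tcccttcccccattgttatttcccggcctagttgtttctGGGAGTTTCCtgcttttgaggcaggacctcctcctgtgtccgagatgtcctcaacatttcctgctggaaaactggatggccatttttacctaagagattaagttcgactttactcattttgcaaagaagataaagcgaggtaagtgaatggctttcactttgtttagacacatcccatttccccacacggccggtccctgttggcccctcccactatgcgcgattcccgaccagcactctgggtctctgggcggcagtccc
Myd88 promoter, chr9:119339969-119340268, - strand: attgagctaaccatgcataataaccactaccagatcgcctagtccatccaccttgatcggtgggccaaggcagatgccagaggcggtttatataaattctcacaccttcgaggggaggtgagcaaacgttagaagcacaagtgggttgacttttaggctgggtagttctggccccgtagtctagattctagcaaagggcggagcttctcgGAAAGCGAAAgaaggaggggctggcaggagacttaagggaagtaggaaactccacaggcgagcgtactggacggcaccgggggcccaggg
Tlr6 promoter, chr5:64959117-64959416, - strand: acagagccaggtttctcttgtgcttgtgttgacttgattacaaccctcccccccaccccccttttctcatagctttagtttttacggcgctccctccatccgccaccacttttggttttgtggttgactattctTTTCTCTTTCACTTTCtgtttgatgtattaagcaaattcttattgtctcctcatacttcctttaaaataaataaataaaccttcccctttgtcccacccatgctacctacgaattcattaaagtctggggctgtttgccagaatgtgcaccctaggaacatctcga

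Genes around these receptors and pores were described from 4 lists. Among 14 tested co-receptors, adaptors and trafficking proteins of Toll-like receptors, 7 rose and 4 fell (median log2 fold change 0.47; 6 and 2 with an assumed BCV of 20%). Of all genes tested 30.8% were called higher and 30.6% lower, so the share of this list that fell is near that of all genes. Cd14, which hands lipopolysaccharide to TLR4, had 1021, 1022 and 983 counts in the libraries labelled cKO, against 404, 408 and 433 counts in control libraries (2.44-fold, adjusted p = 5.28e-22). Ly86, the partner of the TLR4-related protein CD180, rose 1.83-fold. Lrrc32 and Cd300a also rose (1.9-fold and 2.19-fold), although LRRC32 anchors latent TGF-beta and CD300A is an inhibitory leukocyte receptor. Sigirr, an inhibitory receptor of the IL-1 and Toll-like receptor family, had 125, 125 and 126 counts in the libraries labelled cKO, against 228, 218 and 206 counts in control libraries (log2 fold change -0.79, SE 0.18, adjusted p = 8.22e-05). Cd36, a scavenger receptor and TLR2 co-receptor, fell 2.01-fold.

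Of 33 downstream kinases, ubiquitin enzymes and transcription factors 7 rose and 11 fell (median log2 fold change -0.07), beside whole-table shares of 30.8% higher and 30.6% lower; the share that fell is near that of all genes, and no result about the list is read from it. Nfkb2, the precursor gene of the non-canonical NF-kappa B subunit, had 1064, 988 and 1015 counts in the libraries labelled cKO and 599, 575 and 627 counts in control libraries (1.71-fold, adjusted p = 1.34e-13). Ikbke, a kinase of the interferon branch, rose 1.59-fold. Peli3 and Peli2, which encode Pellino ubiquitin ligases of IRAK signalling, fell 1.65-fold and 1.42-fold, and Tab2, an adaptor of the kinase TAK1, and Sharpin, a subunit of the linear ubiquitin ligase, fell 1.42-fold and 1.39-fold. With an assumed BCV of 20% the counts of this list were 2 higher and 1 lower.

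Substrates, regulators and partners of inflammasomes and gasdermins had 21 of 30 higher and 3 lower (median log2 fold change 0.64), beside 30.8% and 30.6% of all genes tested. Mefv, the gene of the inflammasome sensor pyrin, had 116, 152 and 160 counts in the libraries labelled cKO, against 20, 8 and 26 counts in control libraries (7.92-fold, adjusted p = 4.06e-13). Il1b, a caspase-1 substrate, rose 26.5-fold. Gzmb, a cytotoxic granule protease, and Zbp1, a nucleic acid sensor that engages RIPK3, rose 7.97-fold and 3.77-fold. Txnip, which encodes a thioredoxin-binding protein reported to engage NLRP3, had 7782, 7842 and 7975 counts in the libraries labelled cKO, against 17365, 16419 and 16728 counts in control libraries (log2 fold change -1.09, SE 0.022, adjusted p = 1.08e-54). Gpx4, the lipid peroxide reductase, fell 1.86-fold.

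Of 17 cytosolic nucleic acid sensors and related enzymes 15 rose and 1 fell (median log2 fold change 0.62), beside 30.8% and 30.6% of all genes tested. With an assumed BCV of 20% the counts of this list were 8 and 0. Sting1, the adaptor of the DNA sensor cGAS, had 512, 550 and 553 counts in the libraries labelled cKO, against 246, 230 and 237 counts in control libraries (2.27-fold, adjusted p = 2.68e-14). Trex1, a DNA exonuclease that limits this pathway, and Ifi204, an AIM2-related DNA sensor, rose 2.33-fold and 2.28-fold. Lrrfip1 fell by 0.07 on the log2 scale (adjusted p = 0.0242), a call lost with upper-quartile scaling and without cKO replicate 1, cKO replicate 3 or control replicate 2; over all leave-one-out fits its log2 fold change lay between -0.083 and -0.042. Zbp1 stands in both of the last 2 lists.

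**Figure D4:**
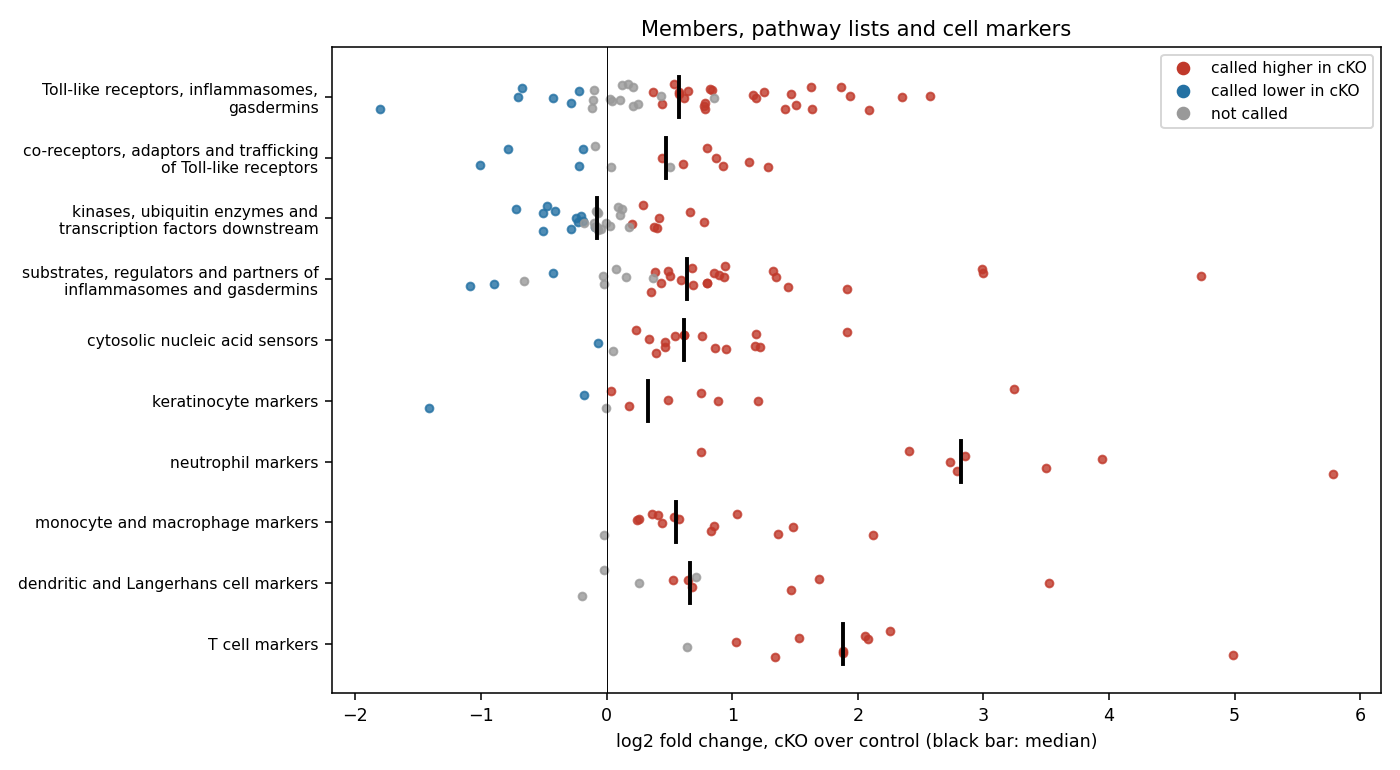
Log2 fold change of the libraries labelled cKO over control libraries for each tested gene (points) of the 53-gene group, of 4 pathway lists and of 5 cell marker lists, with the list median as a black bar (vertical spread within a row is only for visibility). The median is 0.58 for the receptors, inflammasomes and gasdermins and -0.07 for the downstream kinases and transcription factors. Neutrophil markers lie farthest right at a median of 2.82, though several of them passed the filter only through the libraries labelled cKO.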

How the data were processed

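Mouse tail skin RNA was sequenced as 6 libraries (VAHTS Universal V5 kit), per the labels' protocols. The submitters' processing notes name fastp, HISAT2, HTSeq and mm39. Tool versions, annotation and strand setting are not stated there, so antisense partners and near-identical copies cannot be separated. The authors deposited whole-number counts per gene, not normalized, and an FPKM table. The deposited FPKM equalled the counts per length and column total for all 18180 genes (relative tolerance 1e-06).

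Counts were fitted on the whole table in R 4.3.3 with edgeR 4.0.16 (filterByExpr with minimum count 10 and minimum total 15, TMM, robust quasi-likelihood, group as the only term). P-values are two-sided with Benjamini-Hochberg adjustment over 15061 genes, called under 0.05. A standard error is the log2 fold change over the square root of F. Levels of different genes were compared on FPKM. Floors of 3 counts cover counting error only. The steps were tested on simulated counts. Within a group, counts of every pair of libraries differed beyond sampling noise (chi-square 3.94 to 4.12 per degree of freedom).

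The members and lists were chosen with earlier results of these data known. Library values are given for up to 4 called members per role in the majority direction and 2 in the other with at least 0.5 CPM, the most abundant of each role, and a set of well-known genes. Up to 4 and 2 called genes were named from each pathway list. Alternatives were DESeq2 1.42.0, limma 3.58.1 (voom and log2 FPKM), other scaling factors, filters and thresholds, a replicate block, an assumed biological coefficient of variation (BCV) and leaving out each library.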

Additional observations from a re-analysis of the deposited data

How the results depend on the processing

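No called member changed direction under any alternative that was run. The counts of 25 members higher and 6 lower, 13 and 1 of them by at least 2-fold, stayed within 1.5 times of these values under other scaling factors and under limma-voom, no count filter and the replicate block. With an assumed BCV of 20% 3 members were lower, and with 40% 8 were higher, all 8 by at least 2-fold, and 1 lower. Counts at least 2-fold higher were 2 by limma on log2(FPKM + 1), with or without a filter of 0.5 FPKM, where the pseudocount shrinks low genes. Counts at least 2-fold lower, which rest on Naip1, were 0 by DESeq2, with 1 CPM required in 3 libraries, by the 3 FPKM fits and at an adjusted p under 0.01. Leaving out 1 library gave 25 to 27 higher, 5 to 6 lower, 13 to 14 at least 2-fold higher and 0 to 1 at least 2-fold lower. The replicate numbers gave no sign of pairing (correlations of same-numbered deviations of -0.0154, -0.0155 and -0.0577). If the spread between libraries is technical, these correlations cannot exclude a pairing. The replicate block left 25 higher and 6 lower and changed no member's call. The shares of Gsdma, Gsdmc, Tlr4, Tlr5, Tlr7, Tlr8 and Tlr13 kept their direction with counts in place of FPKM and without any 1 library. Depth limits the 9 untested members, and Nlrc3, Nlrp1b, Nlrp12, Nlrc4, Gsdmc2 and Naip1, all scarce, have standard errors of 0.44 to 0.74 on the log2 scale.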
